A study of Mus musculus with 12 samples.

Results

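Enteric neuron genes were followed across pull-downs that target a neighbouring cell type, the enteric glial cell (EGC). The group comprised 9 genes, Elavl4, Uchl1, Tubb3, Snap25, Stmn2, Prph, Nos1, Vip and Chat, which were taken by name from the 12975 genes of the count table, and all 9 were present. PLPCreERT2 Rpl22HA mice carry a tamoxifen-inducible Cre directed to EGCs and a ribosomal protein, Rpl22, that gains an HA tag in cells with active Cre (the RiboTag system), so that ribosomes of the targeted cells and their bound mRNA can be precipitated. All 6 animals, controls included, carried both alleles and received 2 intraperitoneal injections of 100 µl tamoxifen (15 mg/ml) at 10 to 12 weeks of age, and were killed 3 to 4 weeks after the first. Small intestinal muscularis was taken from 3 naive animals (T0, animals 1, 2 and 4) and from 3 others 3 h after intestinal manipulation (T3, animals 1, 3 and 4), a surgical handling that inflames the muscle layer, and equal numbers at T0 and T3 are different mice. Each homogenate was divided between anti-HA antibody (HA) and an isotype control, mouse IgG1 (IgG), which gave 12 libraries in 4 groups of 3. Enteric neurons were therefore not the intended source of HA RNA, and the IgG libraries hold RNA that came down without the tag.

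Enteric neurons lie in ganglia between the muscle layers, where glia wrap their cell bodies and processes, and their local circuits drive gut motility. Some of the genes studied here are made by nearly every neuron. Elavl4 encodes the RNA-binding protein HuD, Uchl1 the ubiquitin hydrolase PGP9.5, Tubb3 a neuronal β-tubulin, Snap25 a SNARE protein of transmitter release, Stmn2 a regulator of microtubule growth and Prph the intermediate filament peripherin. The remaining genes divide enteric neurons by transmitter. Nos1 makes nitric oxide and Vip encodes vasoactive intestinal peptide, both used by inhibitory motor neurons, and Chat makes acetylcholine, the transmitter of excitatory neurons.

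In mm10 (GENCODE annotation) the 9 genes lie on 8 chromosomes. Snap25 occupies chr2:136713453-136782428 (+), Stmn2 chr3:8509360-8561606 (+), Elavl4 chr4:110203722-110351909 (-), Uchl1 chr5:66676091-66687234 (+) and Nos1 chr5:117781032-117958840 (+). Tubb3 occupies chr8:123411424-123422015 (+), Vip chr10:5639218-5647617 (+), Chat chr14:32408203-32465989 (-) and Prph chr15:99055174-99058978 (+). Counts were taken in a window at the 3′ end of each gene, and for Tubb3 this window is shared with Gm20388, an annotated gene on the same strand that is not analysed here. Because each molecule gives 1 tag at its 3′ end, CPM values (counts scaled to the library total) can be set side by side between genes without a length correction.

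Promoters are shown for Uchl1, Tubb3, Prph and Vip, the members called higher at T3 than at T0 in the HA pull-down (adjusted p under 0.05). Each run is the 250 bases before the transcription start in RefSeq (GRCm38.p6), on the strand of the gene, at chr5:66675871-66676120 for Uchl1, chr8:123411303-123411552 for Tubb3, chr15:99054924-99055173 for Prph and chr10:5638968-5639217 for Vip. Capitals mark matches on either strand to the TATA box, searched as TATAAA, to the core of the cAMP response element, searched as TGACG, and to the GC box, searched as GGGCGG. The binding motif of AP-1 was searched as TGANTCA.
Uchl1: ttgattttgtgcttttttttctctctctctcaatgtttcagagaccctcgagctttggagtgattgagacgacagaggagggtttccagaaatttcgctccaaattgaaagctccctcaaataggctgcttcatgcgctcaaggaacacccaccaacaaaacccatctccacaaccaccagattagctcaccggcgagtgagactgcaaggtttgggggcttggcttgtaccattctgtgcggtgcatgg
Tubb3: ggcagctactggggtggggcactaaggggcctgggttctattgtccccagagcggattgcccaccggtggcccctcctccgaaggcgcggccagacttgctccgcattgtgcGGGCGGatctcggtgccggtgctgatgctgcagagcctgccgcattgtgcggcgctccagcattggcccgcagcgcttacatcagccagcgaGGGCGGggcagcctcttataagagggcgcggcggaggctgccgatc
Prph: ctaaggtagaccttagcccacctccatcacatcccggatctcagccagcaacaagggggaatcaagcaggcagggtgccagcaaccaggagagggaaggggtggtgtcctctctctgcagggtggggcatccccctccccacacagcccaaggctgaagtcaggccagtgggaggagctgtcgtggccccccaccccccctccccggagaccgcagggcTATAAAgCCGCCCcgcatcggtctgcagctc
Vip: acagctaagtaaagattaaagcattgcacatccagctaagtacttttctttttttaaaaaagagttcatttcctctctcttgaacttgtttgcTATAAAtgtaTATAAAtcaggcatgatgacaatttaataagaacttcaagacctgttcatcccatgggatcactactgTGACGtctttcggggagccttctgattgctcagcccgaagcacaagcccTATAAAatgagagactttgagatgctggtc
No matches overlapped each other. Prph and Vip each held a TATA box close to the start, with its first base 31 bases before it in Prph and 30 in Vip, and Vip held 2 further copies. Vip alone of these 4 held the cAMP response core, 79 bases before the start, and Tubb3 held 2 copies of the GC box while Prph held 1, read on the other strand. Uchl1 held none of the motifs and none of the 4 windows held the AP-1 motif. Of all 32851 mouse promoter windows of the same length, 12.4% held the TATA box, 17.8% the cAMP response core, 32.7% the GC box and 6.75% the AP-1 motif, and the matches are given as a description. Among the other members, the cAMP response core was present in the windows of Nos1 and Chat and in 3 of the 4 windows of Elavl4. Snap25 and Stmn2 had no window in the promoter set, so their promoters were not searched.

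Depth ran from 1221788 to 2870591 counts in the HA libraries and from 88136 to 1289833 in the IgG libraries, with the lowest totals in IgG at T3 (88136, 92022 and 248522). A gene with 0 counts could therefore stand for up to 1.05 CPM where depth was highest and 34.0 CPM where it was lowest, by counting error alone. Markers of the targeted cell were high in HA, where 11 glial genes summed to 3688 to 5210 CPM, against 178 to 242 in IgG at T0 and 229 to 998 in IgG at T3, with Cdh19 at 0 in every IgG library. Smooth muscle, the bulk of the tissue, was lower in HA, where 11 markers summed to 17690 to 34490 CPM, than in IgG, where they summed to 54990 to 87010. Labels tie each HA library to the IgG library of the same animal, and the 3 libraries of a group came from separate animals.

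Transcripts of the 9 genes made up a small part of every library, and a smaller part of HA than of IgG libraries. In naive tissue they held 0.110%, 0.118% and 0.128% of the HA counts of animals 1, 2 and 4, and 0.330%, 0.149% and 0.239% of the IgG counts of the same animals. At T3 they held 0.138%, 0.123% and 0.217% of the HA counts of animals 1, 3 and 4, and 0.244%, 0.149% and 0.293% of the IgG counts. HA was below IgG in all 6 animals. Group means were 0.119% ± 0.00909 (SD, n = 3) in HA and 0.239% ± 0.0906 in IgG at T0, and 0.159% ± 0.0504 in HA and 0.228% ± 0.0731 in IgG at T3. The 2 pull-downs did not overlap at T0 but did at T3, where the HA library of animal 4 lay above the IgG library of animal 3. Exact binomial 95% intervals were narrowest for the deep HA library of T0 animal 1, at 0.106% to 0.114%, and widest for the IgG library of T3 animal 1, at 0.213% to 0.279%, and they cover counting error only.

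**Figure D1:**
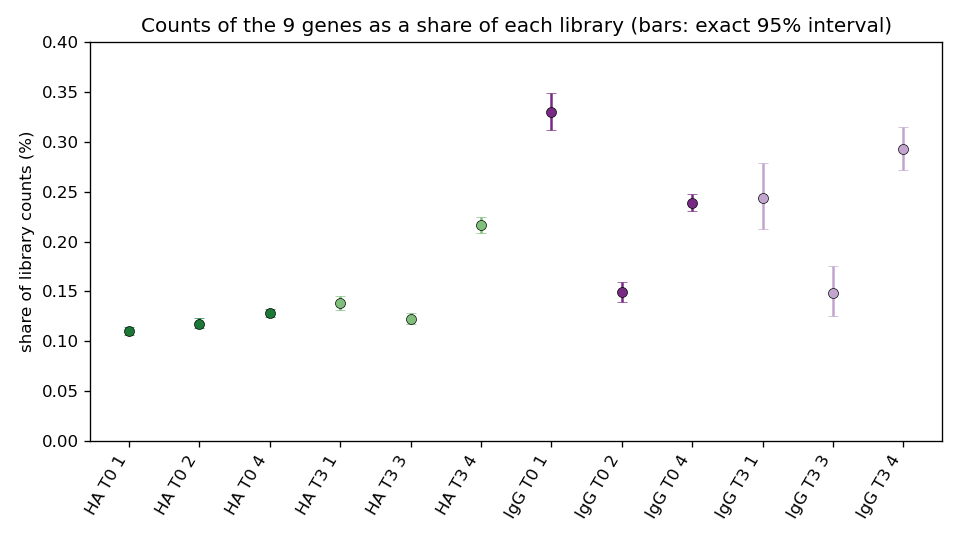
Counts of the 9 enteric neuron genes as a percentage of all counts (y axis) in each of the 12 libraries (x axis), with exact 95% binomial intervals. HA libraries sit between 0.110% and 0.217% and IgG libraries between 0.149% and 0.330%.

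Uchl1 was the most abundant member in every group. It stood at 564, 636 and 668 CPM in HA and 1193, 669 and 929 CPM in IgG at T0, and at 605, 621 and 1053 CPM in HA and 851, 499.9 and 1066 CPM in IgG at T3. The naive HA libraries were close to each other and all below IgG, though the nearest libraries stood at 668 and 669 CPM, whereas the groups overlapped at T3. Peripherin came next on average in all 4 groups. Prph measured 171, 180 and 199 CPM in HA and 518, 276 and 536 CPM in IgG at T0, and 255, 189 and 383 CPM in HA and 488, 435 and 833 CPM in IgG at T3. Every HA library was below every IgG library of its time point.

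Tubb3, at 90.6, 86.0 and 53.0 CPM in naive HA, was at 312, 173 and 183 CPM in naive IgG. After manipulation it measured 125, 96.3 and 192 CPM in HA, all above naive HA, and 204, 97.8 and 209 CPM in IgG. Stmn2 was the steadiest member in HA, with 77.9, 76.5 and 85.0 CPM at T0 and 87.6, 75.6 and 104 CPM at T3. Its IgG libraries spread more widely, over 211, 90.8 and 194 CPM at T0 and 204, 86.9 and 153 CPM at T3.

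Snap25 and Elavl4 were the lowest pan-neuronal members in HA and showed the widest spread in IgG. Snap25 gave 26.9, 23.5 and 28.6 CPM in HA at T0, 35.2, 22.7 and 34.3 CPM in HA at T3, 289, 65.1 and 108 CPM in IgG at T0 and 182, 21.7 and 149 CPM in IgG at T3. In IgG at T3, the value for animal 3 rests on 2 counts. Elavl4 gave 21.1, 5.59 and 5.92 CPM in HA at T0 and 13.1, 4.01 and 8.56 CPM in HA at T3. Its IgG values were 402, 24.0 and 31.8 CPM at T0 and 56.7, 10.9 and 44.3 CPM at T3. Animal 1 at T0 was the highest of its group for Elavl4 in both pull-downs, with 55 counts in HA and 156 in IgG, and Elavl4 was lower in HA than in IgG in all 6 animals.

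Among the transmitter genes, Nos1 did not follow the others. It measured 65.3, 116 and 158 CPM in HA and 116, 85.7 and 206 CPM in IgG at T0, and 160, 132 and 273 CPM in HA and 102, 217 and 193 CPM in IgG at T3, with overlap in both cases. Vip measured 85.6, 54.2 and 86.7 CPM in HA and 263, 106 and 197 CPM in IgG at T0, and 101, 85.6 and 121 CPM in HA and 352, 120 and 278 CPM in IgG at T3. Vip was lower in HA than in IgG in all 6 animals, but at T3 the highest HA library lay just above the lowest IgG library. Chat was barely detected, with 1 count in HA of T0 animal 2, 1 in HA of T3 animal 1, 5 in IgG of T0 animal 4 and 0 in the remaining libraries, so no difference in Chat was detectable at this depth. Slc18a3, the vesicular acetylcholine transporter, whose gene lies within the Chat locus, was detected in all 12 libraries at 1 to 44 counts, with means of 13.9 CPM in HA and 29.9 CPM in IgG at T0.

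**Figure D2:**
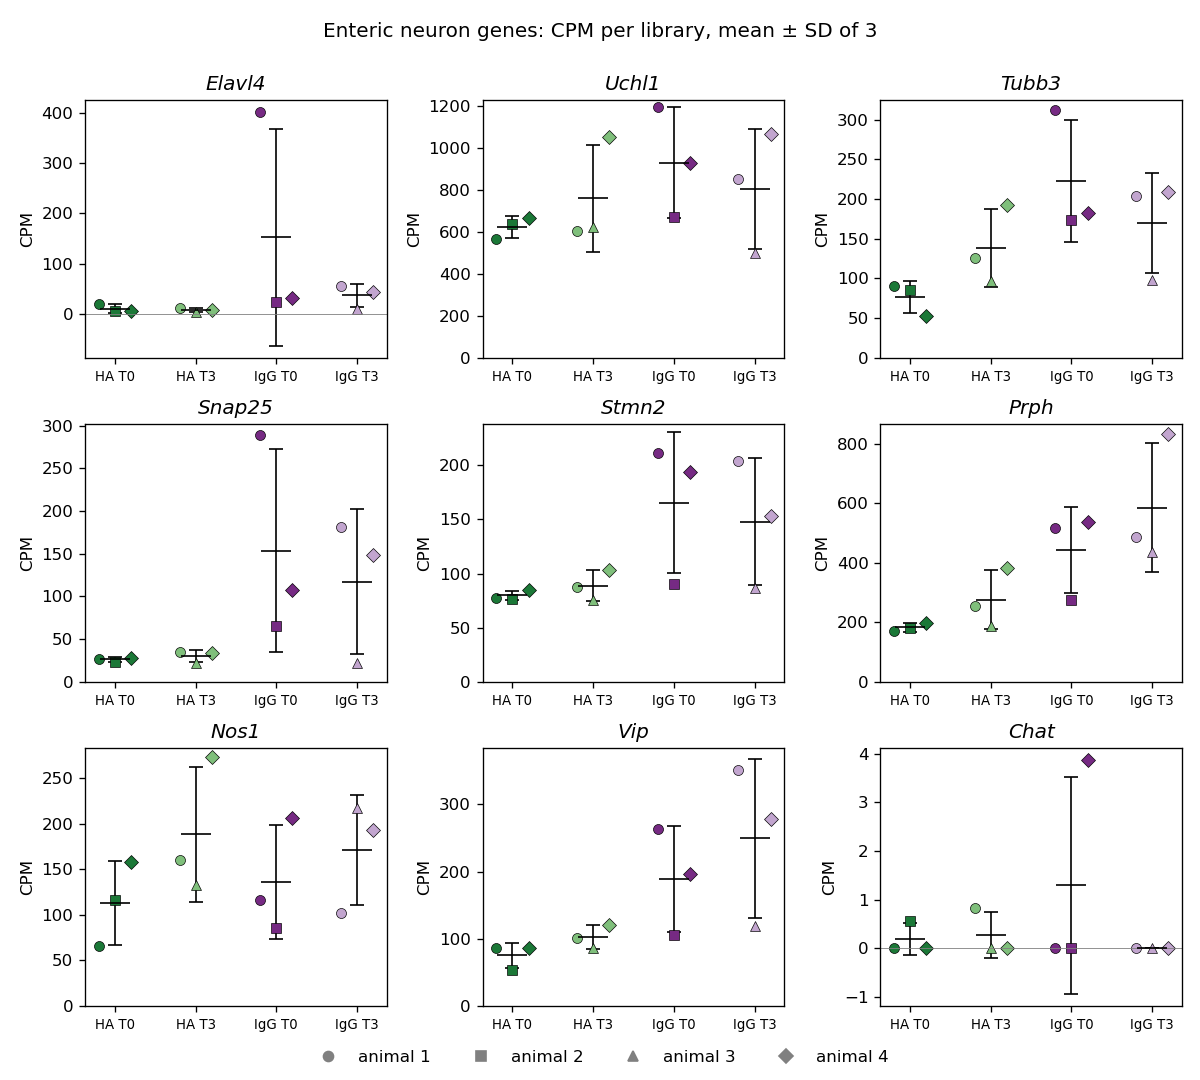
CPM (y axis, a separate scale for each gene) of the 9 genes in the 12 libraries by group (x axis), where symbols give the animal number and black bars the mean ± SD of 3. Most members have a lower mean in HA than in IgG. The mean of Nos1 is lower in HA at T0 (113 against 136 CPM) and higher at T3 (188 against 171 CPM), with overlap at both. The IgG library of T0 animal 1 stands at 402 CPM for Elavl4.

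By mean level the order in naive HA was Uchl1, Prph, Nos1, Stmn2, Tubb3, Vip, Snap25, Elavl4 and Chat. Nos1, Stmn2, Tubb3 and Vip overlapped with each other in this run, which stood clear of Prph above and of Snap25 below in all 3 libraries, and the remaining neighbours did not overlap. In HA at T3 the order was Uchl1, Prph, Nos1, Tubb3, Vip, Stmn2, Snap25, Elavl4 and Chat, with overlap between neighbours from Prph down to Stmn2. The order in naive IgG was Uchl1, Prph, Tubb3, Vip, Stmn2, Snap25, Elavl4, Nos1 and Chat, where only Uchl1 at the top and Chat at the bottom were clear of their neighbours. In IgG at T3 it was Uchl1, Prph, Vip, Nos1, Tubb3, Stmn2, Snap25, Elavl4 and Chat, with Uchl1 and Prph overlapping and both clear of Vip. Uchl1 accounted for 52.4% ± 1.44 of the counts of the 9 genes in HA and 40.0% ± 4.48 in IgG at T0, and its part was larger in HA in all 6 animals. Nos1 made a larger part in HA in 5 of 6 animals (9.36% ± 3.22 against 5.97% ± 2.57 at T0), while Prph, Vip and Elavl4 made a smaller part in HA in all 6. Counts of Nos1 per count of Vip ranged from 0.762 to 2.26 in HA and from 0.290 to 1.82 in IgG.

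The first comparison asked how the HA pull-down differed from IgG in naive muscularis. Most members were lower in HA. Snap25 was 5.76-fold lower, Tubb3 2.92-fold, Vip 2.52-fold, Prph 2.47-fold, Stmn2 2.11-fold and Uchl1 1.53-fold lower, and these 6 of the 8 members tested passed the threshold (adjusted p under 0.05 over all genes, edgeR quasi-likelihood test). In this contrast 30.3% of 9823 genes tested were called, 14.4% as lower in HA. Log2 fold changes of HA over IgG were -2.53 (SE 0.539, adjusted p = 0.0122) for Snap25, -1.55 (SE 0.290, 0.00164) for Tubb3, -1.34 (SE 0.309, 0.00669) for Vip and -1.31 (SE 0.240, 0.00106) for Prph. They were -1.08 (SE 0.272, adjusted p = 0.00869 by edgeR) for Stmn2 and -0.61 (SE 0.219, 0.0480) for Uchl1. The median over the 8 members was -1.32, against -0.02 over all genes tested. Without overlap of the libraries, 7 members were lower in HA, where 20.1% of all genes tested were. Markers of other cells of the tissue were also lower in HA at T0, with 11 of 11 smooth muscle genes (median -1.42), 6 of 6 fibroblast genes (-1.57), 5 of 5 mesothelial genes (-1.81) and 3 of 8 macrophage genes (-0.81) called lower. Glial markers were called higher in 10 of 10 (median 4.24) and markers of interstitial cells of Cajal in 3 of 3 (3.35), and the part of these shifts in the values of the neuron genes was not tested.

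Elavl4 had the largest fitted difference and the widest spread, at -3.69 (SE 1.53, adjusted p = 0.153 by edgeR), and Nos1 stood at -0.34 (95% interval -1.20 to 0.51, adjusted p = 0.529). With the animal as a block, which compares HA with IgG within one homogenate, Elavl4 passed at -3.31 (SE 0.377, adjusted p = 2.26e-06 by edgeR), and no other member changed its call. Elavl4 stood at -1.34 when IgG of animal 1 was left out, and it passed in 3 of 13 alternatives, the block among them. The call for Uchl1 was lost in 8 of 13 alternatives (adjusted p up to 0.240), that for Snap25 when any HA library was left out (adjusted p 0.0517 to 0.0604) and that for Stmn2 when IgG of animal 4 was left out (0.0550). Chat fell under the filter on low counts in all 5 comparisons.

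The same comparison at T3 asked how the pull-downs compared 3 h after manipulation. Snap25 was 3.82-fold, Vip 2.34-fold and Prph 2.06-fold lower in HA than in IgG, and 3 of the 7 members tested passed, where 21.9% of 7200 genes tested were called and 10.2% were called lower. Log2 fold changes were -1.93 (SE 0.440, adjusted p = 0.00430) for Snap25, -1.23 (SE 0.323, 0.0104) for Vip and -1.04 (SE 0.320, 0.0249) for Prph by edgeR. Stmn2 stood at -0.66 (95% interval -1.33 to 0.01, adjusted p = 0.152), Tubb3 at -0.28 (-0.99 to 0.43), Uchl1 at -0.02 (-0.69 to 0.64) and Nos1 at 0.19 (-0.51 to 0.89). The median over the 7 members was -0.66, against 0.02 over all genes. Of markers of other cells, 10 of 11 smooth muscle genes (median -2.10) and 4 of 5 fibroblast genes (-1.92) were called lower in HA. So were 2 of 3 macrophage genes (-1.35) and the 1 mesothelial gene tested (-3.05). Glial markers were called higher in 8 of 10 (2.88) and those of interstitial cells of Cajal in 3 of 3 (1.73). The part of these shifts in the values of the neuron genes was not tested. Of the members only Prph was lower in HA without overlap of the libraries, where 16.4% of all genes tested were, and in animal 3 Snap25 was not lower in HA (22.7 CPM) than in IgG (21.7 CPM). Elavl4 fell under the filter on low counts, with 6 to 16 counts in HA and 1 to 11 in IgG. Without a filter it stood at -1.90 (SE 0.586, adjusted p = 0.0111 by edgeR), in a fit that called 6.57% of 12891 genes lower.

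**Figure D3:**
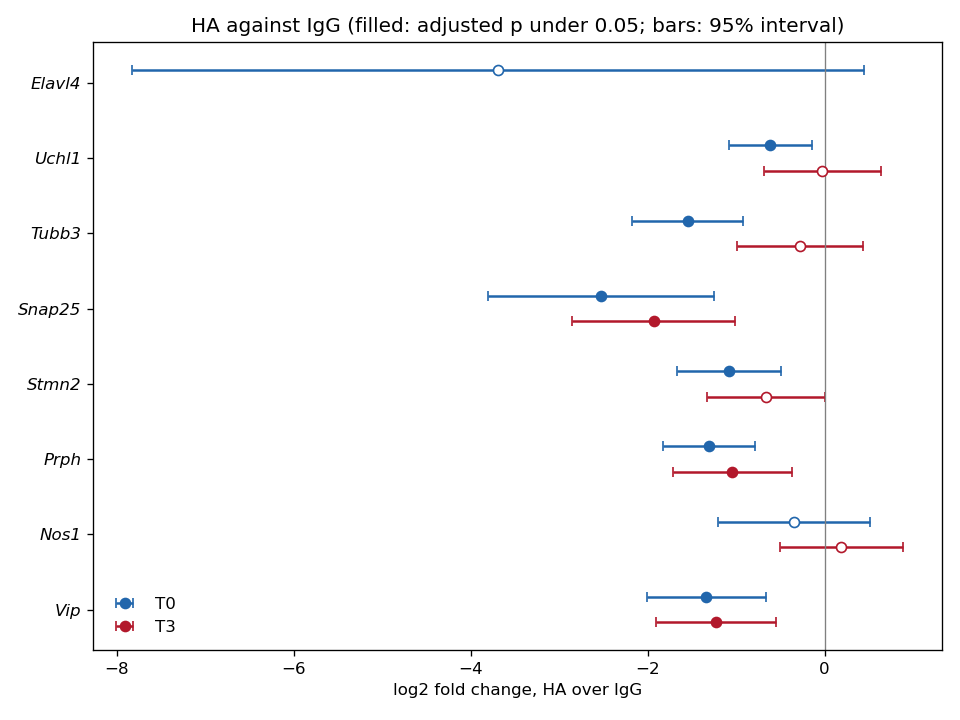
Log2 fold change of HA over IgG (x axis) with 95% intervals for 8 of the genes (y axis) at T0 (blue) and T3 (red), where filled points had an adjusted p under 0.05 and Elavl4 was not tested at T3. At T0 all 8 points lie below 0, from -3.69 for Elavl4 to -0.34 for Nos1.

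In the IgG libraries at T3 the genes called had 2 to 37 counts (Snap25), 11 to 69 (Vip) and 40 to 207 (Prph). When IgG of animal 4 at T3, the deepest of its group, was left out, none of the 7 members passed, with Snap25 at -1.45, Vip at -0.93 and Prph at -0.48. Prph was also lost without HA of animal 1 or 3 (adjusted p = 0.0957 and 0.108 by edgeR) and Vip without HA or IgG of animal 1 (0.0522 and 0.0609). Glial markers were higher in 2 of the IgG libraries at T3 than in any IgG library at T0, as given above, and their part in the smaller differences at T3 was not tested.

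The comparison over time within HA asked how the precipitated RNA changed 3 h after manipulation. Tubb3 rose 2.16-fold, Prph 1.81-fold, Vip 1.62-fold and Uchl1 1.47-fold. These 4 of the 8 members tested passed, all upwards, where 33.8% of 9441 genes were called and 18.7% were called higher. Log2 fold changes of T3 over T0 were 1.11 (SE 0.284, adjusted p = 0.00989) for Tubb3, 0.85 (SE 0.217, 0.00543) for Prph, 0.69 (SE 0.208, 0.0141) for Vip and 0.56 (SE 0.203, 0.0405) for Uchl1 by edgeR. Nos1 stood at 1.02 (95% interval 0.21 to 1.82, adjusted p = 0.0553), Snap25 at 0.47 (-0.05 to 1.00), Stmn2 at 0.42 (0.03 to 0.81, adjusted p = 0.0888) and Elavl4 at -0.16 (-1.53 to 1.22). The members' median was 0.63, against -0.02 over all genes tested. Only Tubb3 had all 3 libraries of T3 above all 3 of T0, where 15.6% of genes did.

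The change in HA leaned on animal 4 at T3, the highest HA library of its group for Uchl1, Tubb3, Stmn2, Prph, Nos1 and Vip. Without it 1 member, Tubb3, passed, and without the HA library of animal 2 at T0 there were 2. Uchl1 was lost without any one of the naive HA libraries (adjusted p 0.0665 to 0.118 by edgeR). Scaling by total counts, under which the median of all genes moved to -0.28, left Tubb3 (0.85) and Prph (0.58) called, with Vip at 0.43 and Uchl1 at 0.29. The fit of all 12 libraries left Tubb3 (1.01), with Prph at 0.75, Vip at 0.59 and Uchl1 at 0.45. All 4 stayed above 0 in the 13 alternatives, in which Tubb3 passed 13 times (adjusted p up to 0.0403) and Prph 11 times (up to 0.0778). Of the 13, 1 was a block on the animal number, which over time joins different mice and so carries no weight. Nos1 passed in 4 of the 13, that block among them. Smooth muscle markers were lower in HA at T3 (17690 to 21080 CPM) than at T0 (23010 to 34490), with 4 of 11 called lower. Fibroblast markers stood at 191 to 355 CPM at T3 and 688 to 954 at T0 (4 of 6 tested lower), and mesothelial markers at 14.0 to 18.8 and 141 to 181 CPM (4 of 4 lower). Markers of interstitial cells of Cajal, which were higher in HA than in IgG, also fell over time, from 2726 to 3467 CPM at T0 to 1204 to 1575 CPM at T3, with Kit, Ano1 and Thbs4 called lower (3 of 3 tested), and so did 2 of 4 macrophage genes tested. Summed glial markers overlapped, at 3688 to 4556 CPM at T0 and 4516 to 5210 at T3, but single genes did not move alike. Of 10 tested 3 rose, Gfap 17.4-fold, Sox2 3.56-fold and S100b 1.62-fold, and Gpr37l1 fell 1.83-fold. The part of these shifts in the values of the neuron genes was not tested. In pull-downs from bulk tissue, more RNA per neuron and more neuronal material in the precipitate cannot be told apart. The cell type that gave the added RNA, tagged or not, cannot be told either.

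Over time within IgG no member passed in either direction, in a contrast that called 5.46% of 5219 genes with the lowest depth of the series. No member had an unadjusted p under 0.05 by edgeR, and DESeq2 called 0 as well. Log2 fold changes of T3 over T0 lay between -1.92 (Elavl4, 95% interval -5.70 to 1.86) and 0.41 (Prph, -0.37 to 1.19), with a median of -0.20 against -0.02 over all genes. Tubb3 stood at -0.35 (-1.14 to 0.44), Vip at 0.40 (-0.49 to 1.28) and Uchl1 at -0.21 (-0.97 to 0.55). A rise of the size seen in HA for Prph, Vip and Uchl1 lies within, or just beyond, these intervals, while that of Tubb3 lies outside its own.

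**Figure D4:**
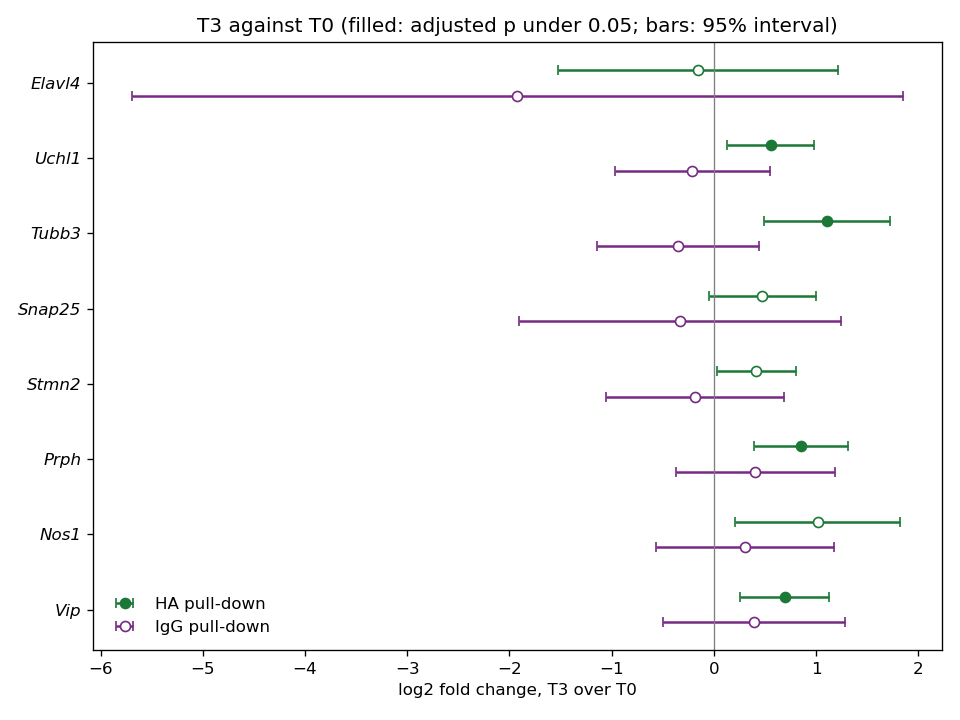
Log2 fold change of T3 over T0 (x axis) with 95% intervals for 8 of the genes (y axis) in the HA (green) and IgG (purple) pull-downs, where filled points had an adjusted p under 0.05. In HA 7 of 8 points lie above 0, and for all 8 genes the HA point lies to the right of the IgG point. In the fit of all 12 libraries, the change in HA exceeded that in IgG for 6094 of 10314 genes tested.

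Whether HA and IgG changed unequally from T0 to T3 was tested as an interaction over all 12 libraries. Without pairing by animal, no member passed by edgeR, 1 (Tubb3) had an unadjusted p under 0.05, DESeq2 called 0, and 0.33% of 10314 genes were called. The change in HA minus the change in IgG was above 0 for all 8 members, from 0.37 (Vip) to 1.80 (Elavl4). It was above 0 for 6094 of the 10314 genes tested. The median was 0.81 over the members, against 0.17 over all genes tested. For Tubb3 it was 1.52 (SE 0.476, 95% interval 0.53 to 2.51, adjusted p = 0.237). With the animal as a block it was 1.62 (SE 0.352, adjusted p = 0.00388 by edgeR) and Tubb3 passed, in a fit that called 156 genes instead of 34. The remaining members did not pass with the block, with values of 0.41 (Vip) to 1.45 (Elavl4).

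The wider neuronal programme was described with 105 further genes grouped by role, of which 93 were in the table and 12 are not analysed here. At T0, 23 of the 83 tested were lower in HA, 12 were higher and 48 did not pass, with a median of -0.63, where 14.4% of all genes were called lower and 16% higher. Genes of the cytoskeleton and axon were lower as a group, with 13 of 13 below 0, 6 called lower, 0 called higher and a median of -1.12. Nefl, a neurofilament, was 6.34-fold lower (adjusted p = 0.000600 by edgeR). Among vesicle release genes 3 of 17 were called lower and 1 higher, with the calcium sensor Syt1 5.22-fold lower (adjusted p = 0.000213). The neuropeptides had 4 of 9 lower and 1 higher, Penk (enkephalins) being 2.22-fold lower (adjusted p = 0.00183), and 2 of 6 transmitter enzymes and transporters were lower and 1 higher, with the decarboxylase Ddc 4.17-fold lower (adjusted p = 0.000820). Fgf13, an intracellular partner of sodium channels, was 4.43-fold lower (adjusted p = 8.82e-05).

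Other genes listed as neuronal went the opposite way, and the cell type that gave their RNA was not tested. Gfra1, a GDNF co-receptor, was 15.0-fold higher in HA at T0, with a mean of 513 ± 102 CPM in HA and 33.8 ± 6.36 in IgG, and the adhesion molecule L1cam was 6.74-fold higher. Scg3 (secretogranin III) was 5.91-fold, the neurturin co-receptor Gfra2 5.04-fold and the neurokinin receptor Tacr3 8.85-fold higher, with adjusted p-values by edgeR from 9.51e-08 for Gfra1 to 0.000556 for Tacr3. Receptors thus held 3 higher and 2 lower of 10 tested. At T3 the counts were 10 higher and 10 lower of 69 tested, where 11.8% of all genes were called higher and 10.2% lower, with Gfra1 7.23-fold, Gfra2 5.08-fold, L1cam 4.29-fold, Scg3 4.11-fold and the transcription factor Tbx3 3.69-fold higher in HA. Lower at T3 were the noncoding RNA Meg3 (13.2-fold), the neurotrophin receptor Ntrk3 (8.83-fold), Syt1 (3.94-fold), and the peptide genes Nmu (3.28-fold) and Calcb (3.21-fold). Ntrk3 had 3 to 6 counts in every T3 library, and Meg3 had 3 in IgG of animal 1. Syt1 and Nmu overlapped between the pull-downs, with 1 and 3 counts in IgG of animal 3. Tacr3 had 1 to 6 counts in the IgG libraries at T0 and did not pass at T3 (-0.39, adjusted p = 0.695 by edgeR).

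Over time within HA, 17 of 79 tested neuron genes rose and 6 fell, with a median of 0.09, where 18.7% of all genes rose and 15.1% fell. The growth cone protein Gap43 rose from 127 ± 18.1 to 295 ± 19.7 CPM (2.78-fold, adjusted p = 2.16e-06 by edgeR), Tbx3 from 76.4 ± 11.6 to 182 ± 12.4 CPM (2.85-fold, 1.82e-06) and the galanin gene Gal from 877 ± 206 to 1675 ± 496 CPM (2.31-fold, 0.000340). Fold changes come from the edgeR fit, which rescales the libraries, whereas CPM uses unscaled totals, so they differ from ratios of the means. Stmn4, a relative of Stmn2, rose 2.94-fold and the vesicle protein Syp 2.21-fold. Cytoskeletal and axonal genes had 4 higher and 0 lower of 11, and vesicle release genes 5 higher and 0 lower of 17. The Notch ligand Dner fell from 26.3 ± 5.92 to 6.27 ± 0.267 CPM (3.47-fold, adjusted p = 0.000413 by edgeR) and Grp (gastrin-releasing peptide) from 41.2 ± 2.29 to 11.9 ± 4.91 CPM (2.85-fold, 0.000535). The transcription factors Hand2 (1.60-fold) and Pbx3 (1.59-fold) and the chaperone Scg5 (1.52-fold) also fell. In IgG 0 of 61 passed by edgeR, 5 of them with an unadjusted p under 0.05, where 5.46% of all genes tested were called. For the interaction 2 of 87 passed, Gap43 at 1.86 (adjusted p = 0.0158) and Tbx3 at 1.85 (0.0360), where 0.33% of all genes tested were called.

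**Figure D5:**
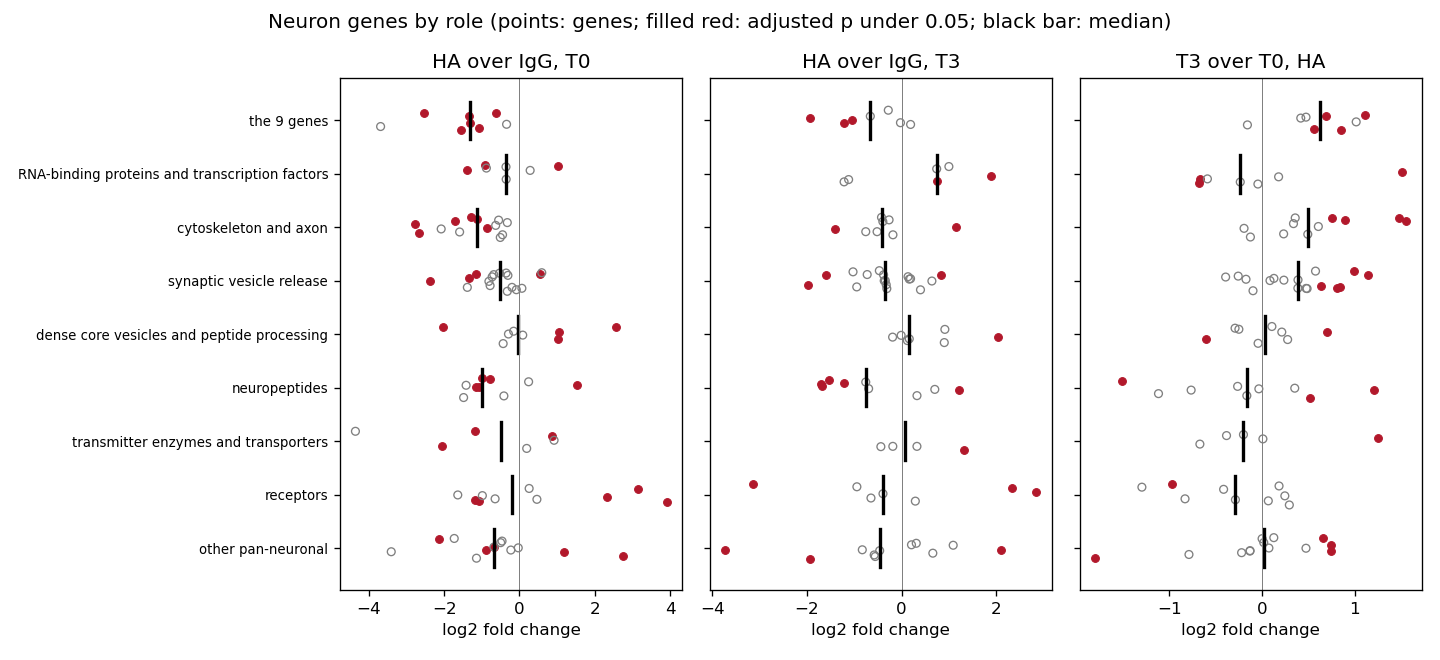
Log2 fold changes (x axes) of single genes in each role list (y axis) for HA over IgG at T0, HA over IgG at T3 and T3 over T0 in HA, with called genes in red, the others as open circles and the list median as a black bar. Cytoskeletal and axonal genes all lie below 0 at T0, whereas receptors spread from -1.64 to 3.91.

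The members' joint profile was compared with each other gene by the Pearson correlation of standardised log2 CPM over the 12 libraries, which share animals and differ in depth, so the values describe likeness only. Stmn2 followed the mean of the other members most closely (r = 0.93), then Vip (0.89), Prph (0.87), Tubb3 (0.87), Snap25 (0.86), Uchl1 (0.79) and Elavl4 (0.71), while Nos1 followed it least (0.17). Genes outside the group with the most similar profile were Fgf1 (0.94), the synaptic vesicle gene Vamp1 (0.93), Rufy3 (0.91), Bean1 (0.91), the substance P gene Tac1 (0.91) and Stmn3 (0.90), followed by Myo9a, Snrpe, Scgn and Rap1gap2 at 0.88 to 0.89.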

How the data were processed

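Ribosome-bound RNA was sequenced by bulk MARS-seq, in which 3′ ends of molecules are read with a molecular identifier (UMI). Trimming used cutadapt and alignment to mm10 used STAR 2.4.2a. The authors kept unique alignments, and HTSeq counted UMIs near each 3′ end (1000 bases before it and 100 after), with an annotation given as Gencode version 10. Use of strand was not given in the sources used here. The authors deposited raw UMI counts for each gene, and 0 values differed between the series table and the single-sample tables. Barcoded samples were pooled before amplification, at most 8 per pool, and pool membership is not given.

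Counts were tested with edgeR 4.0.16 (quasi-likelihood F-test, robust) in R 4.3.3, with TMM scaling, filterByExpr and Benjamini-Hochberg adjustment over all genes tested (threshold 0.05). Standard errors were derived from F. Contrasts of 2 groups used their 6 libraries and the interaction all 12, without covariates. Scripts were tested on simulated data. CPM used unscaled totals. HA and IgG libraries of one animal come from one homogenate, and their deviations from the group means correlated at 0.089 to 0.273, above those of every mismatched HA and IgG pair of the same time point, so the animal pairs them. Alternatives were RLE scaling, total counts, no filter, at least 5 counts in 1 library, DESeq2 1.42.0, 1 fit over the 12 libraries, a replicate block and leaving out each library. All 9 members were named, and of the other neuron genes up to 5 per direction and contrast with the smallest p among those called. The members and lists were chosen with earlier results of these data known.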

Additional observations from a re-analysis of the deposited data

Results flagged for a closer look

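Of the genes listed as neuronal, the interaction test picked out Gap43 and Tbx3, which changed unequally with time in HA and IgG. The cell type in which they changed was not tested. Gap43 had a change in HA minus change in IgG of 1.86 on the log2 scale (SE 0.358, adjusted p = 0.0158 by edgeR), with 127 and 295 CPM in HA at T0 and T3 and 171 and 132 CPM in IgG. Tbx3 had a difference of 1.85 (SE 0.401, adjusted p = 0.0360), with 76.4 and 182 CPM in HA and 61.3 and 53.4 CPM in IgG. Tubb3 passed with the animal as a block, at 1.62 (adjusted p = 0.00388), and not without it. The IgG values at T3 rest on 8 to 43 counts for Gap43, 3 to 12 for Tbx3 and 9 to 52 for Tubb3.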

How the results depend on the processing

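Under the alternatives, 485 values of single members kept their direction and side of the threshold, 31 lost and 9 gained a call, and 22 changed sign, none of them a call. The number of members called ranged over single-library omissions from 4 to 6 for HA against IgG at T0, 0 to 4 at T3, 1 to 6 over time in HA and 0 to 0 in IgG and for the interaction, and group shares from 0.114% to 0.123% (HA T0), 0.130% to 0.178% (HA T3), 0.194% to 0.285% (IgG T0) and 0.196% to 0.268% (IgG T3). Over time in HA 2 were called with total counts and 1 with all 12 libraries; for the interaction 1 with the replicate block. Pairing by animal changed no other call of HA against IgG than that of Elavl4. At T3 against T0 equal numbers mark different mice (correlations 0.011 to 0.169), and a block on them called 5 members in HA, Nos1 added (1.30), and 0 in IgG. That block joins different mice, so its calls and sign changes over time carry no weight. Sign changes were Uchl1 at T3 (0.22 with no filter, 0.16 with at least 5 counts, 0.022 with the replicate block), Elavl4 over time in HA (0.040 with the replicate block), Nos1 over time in IgG (-0.14 with the replicate block) and Vip in the interaction (-0.0030 with total counts). With a library left out, values crossed 0 over the range -0.62 to 0.16 for Nos1 at T0, at T3 -0.36 to 0.44 for Uchl1, -0.19 to 0.50 for Nos1 and -0.61 to 0.14 for Tubb3, over time in HA -0.56 to 0.81 for Elavl4, over time in IgG -2.47 to 0.41 for Elavl4, -0.73 to 0.43 for Snap25, -0.51 to 0.083 for Stmn2, -0.58 to 0.071 for Uchl1 and -0.063 to 0.62 for Prph, and -0.57 to 2.67 for Elavl4 in the interaction. The cause was not tested. Over all genes, IgG over time had 285 calls, 519 with no filter, 677 with all 12 libraries and 167 to 333 with a library left out; HA against IgG at T3 had 1578 and 849 to 1977; the interaction had 34, 20 with RLE, 8 with total counts, 83 with DESeq2 and 5 to 95. The table holds 0 genes named mt-, so shares without them equal those given.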
